A study of Mus musculus with 6 samples.

Results

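Genes of the endothelial response to blood flow and of vascular tone were followed in liver endothelial cells (ECs) from young and aged mice. The 10 genes were the flow-responsive transcription factors Klf2, Klf4 and Klf6, the mechanosensitive channel Piezo1, the nitric oxide synthases Nos3 and Nos2, the endothelin genes Edn1, Ece1 and Ednrb, and Ace, chosen by name from 24421 gene symbols with counts. All 10 were among the 14612 genes that reached 0.5 CPM (reads of a gene relative to the size of its library) in at least 1 sample and were tested. The cells were CD31+CD45- ECs sorted by flow cytometry from the livers of wild-type C57BL/6J mice with no treatment in the labels. The mice were female by the methods. There were 3 young samples, from 10-week-old mice, and 3 aged samples, 1 each at 127, 131 and 136 weeks by the labels and named here by those ages. The samples are independent by the methods, and the aged group joins 3 different ages. As these are bulk samples, fewer cells of a type and less RNA per cell cannot be told apart. A sort on CD31 takes in sinusoidal and large-vessel ECs alike.

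Flowing blood drags along the endothelial surface, and ECs sense this shear stress through junctional proteins and channels such as Piezo1. Steady flow induces KLF2 and KLF4, which raise endothelial nitric oxide synthase (the product of Nos3) and restrain endothelin-1, so that vessels stay relaxed and free of clots. Endothelin-1 is cut from an inactive precursor by the converting enzyme encoded by Ece1. It contracts stellate and smooth muscle cells through endothelin receptor A, whereas receptor B (Ednrb) on ECs clears endothelin and triggers nitric oxide release. In the liver, the balance of nitric oxide and endothelin is known to set sinusoidal tone. Angiotensin-converting enzyme (Ace) makes the constrictor angiotensin II and degrades the dilator bradykinin.

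Each library held 23001556 to 31651817 counts, and the members had between 98 and 46839 counts in a sample, far above the 3 counts (0.0948 to 0.130 CPM) taken here as the floor of detection. Such a floor covers counting error only. Pecam1, which encodes the CD31 antigen used for the sort, lay between 1366 CPM in the 127-week sample and 1635 CPM in the 136-week sample. The 8 pan-endothelial markers, Pecam1 among them, summed to 9240, 9431 and 10209 CPM in young replicates 1, 2 and 3. At 127, 131 and 136 weeks they summed to 7697, 8768 and 6802 CPM. Kdr, the most abundant of the 8, gave 3330 to 3680 CPM of these sums in young and 1669 to 3008 CPM in aged ECs. Of the 8 markers, 3 had a fold change above 1 and 5 below. Counts of the symbols Lars2 and Rn45s are called ribosomal counts here as a label only, since Lars2 is not a ribosomal gene. These 2 symbols took 1.29% of the counts of young replicate 3, 0.960% of those at 127 weeks and 4.68% to 5.53% elsewhere. Age differences are therefore also given within these library clusters. In 1 of the 10 members both samples with few ribosomal counts lay above the other 4 and in 3 they lay below, while this held for 16.6% and 14.1% of all tested genes. CPM values below are scaled by TMM factors.

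The KLF factors bind a CACCC core, so promoters were searched for these letters, for the AP-1 site TGACTCA and for the GATA site AGATAA, each on both strands. In the promoters shown, no match of one motif overlapped a match of another. RefSeq promoters (GRCm38.p6, 250 bases before to 50 after a start) were at hand for 8 of the 10 members, with 12 promoters in all. The KLF core or its complement GGGTG occurred in 9 of the 12 (75.0%), in 6 genes, and in 57.5% of 32851 mouse promoters of that length. The 12 are not independent, as Ece1 and Ace each have several. The Ece1 windows that start at 137861987 and 137862030 on chromosome 4 overlap and hold the same KLF core, which is counted in both. The AP-1 site was in 0 of the 12 against 5.2% of all promoters, and the GATA site was in 1, that of Edn1, against 11.2%. Shown 5′ to 3′ with the motifs in capitals are the promoters of Klf2 itself, of the ligand Edn1, of its receptor Ednrb and of Ace, the member with the largest age difference. Where a gene has several, its first is shown. That of Klf2 is at chr8:72318812-72319111 (plus strand), that of Edn1 at chr13:42301226-42301525 (plus strand), that of Ednrb at chr14:103843652-103843951 (minus strand) and that of Ace at chr11:105967698-105967997 (plus strand).
Klf2: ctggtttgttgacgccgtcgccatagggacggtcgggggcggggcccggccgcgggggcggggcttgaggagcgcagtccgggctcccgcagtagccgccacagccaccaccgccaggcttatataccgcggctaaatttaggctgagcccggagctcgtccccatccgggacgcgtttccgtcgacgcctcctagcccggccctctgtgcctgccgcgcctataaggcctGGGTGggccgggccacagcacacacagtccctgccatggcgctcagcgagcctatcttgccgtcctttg
Edn1: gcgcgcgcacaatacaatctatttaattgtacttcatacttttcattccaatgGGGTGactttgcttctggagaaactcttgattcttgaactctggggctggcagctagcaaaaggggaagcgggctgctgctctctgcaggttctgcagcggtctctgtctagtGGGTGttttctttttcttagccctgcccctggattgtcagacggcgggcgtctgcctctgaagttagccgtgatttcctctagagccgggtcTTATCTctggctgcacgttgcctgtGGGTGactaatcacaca
Ednrb: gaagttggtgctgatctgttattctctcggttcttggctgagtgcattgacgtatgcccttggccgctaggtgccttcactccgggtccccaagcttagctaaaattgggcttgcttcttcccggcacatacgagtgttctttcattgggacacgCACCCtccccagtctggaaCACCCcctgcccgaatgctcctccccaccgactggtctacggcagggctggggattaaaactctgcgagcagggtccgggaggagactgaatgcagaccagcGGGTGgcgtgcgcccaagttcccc
Ace: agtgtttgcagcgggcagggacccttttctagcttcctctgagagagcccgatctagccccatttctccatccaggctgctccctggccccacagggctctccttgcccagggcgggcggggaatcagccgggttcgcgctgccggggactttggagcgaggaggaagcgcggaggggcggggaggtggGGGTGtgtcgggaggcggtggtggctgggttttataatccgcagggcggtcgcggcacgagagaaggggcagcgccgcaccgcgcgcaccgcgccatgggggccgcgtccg
The Klf2 and Ace windows held 1 KLF core each, and the Edn1 and Ednrb windows 3 each. In Edn1 the letters TTATCT lay 8 bases after the start. These are matches of letters only.

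Whether the genes differed with age was asked with edgeR's quasi-likelihood test over all 14612 genes, with Benjamini-Hochberg adjustment. No member passed an adjusted p of 0.05, and neither did any other gene (0% of those tested, smallest adjusted p = 0.0735). With an unadjusted p below 0.05, 1 member was higher in aged ECs and 0 were lower, beside 8.32% of all tested genes that were higher and 4.32% that were lower. In DESeq2, another count test, 1 member was higher at an adjusted p below 0.05 and 0 were lower, beside 3.28% of all genes higher and 1.03% lower. The member was Ace in both tests. Of the 10 members, 9 had a fold change above 1 and 1 below, beside 7462 above and 7150 below among the 14612 tested genes. The members' median log2 fold change was 0.41 against 0.01 over all tested genes. The sign for Klf6, Nos3, Ednrb and Piezo1 depended on which sample was left out. All 3 aged values lay above the 3 young ones in 1 member, again Ace, and below them in 0, while 9.62% and 8.33% of all tested genes separated in these directions.

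**Figure D1:**
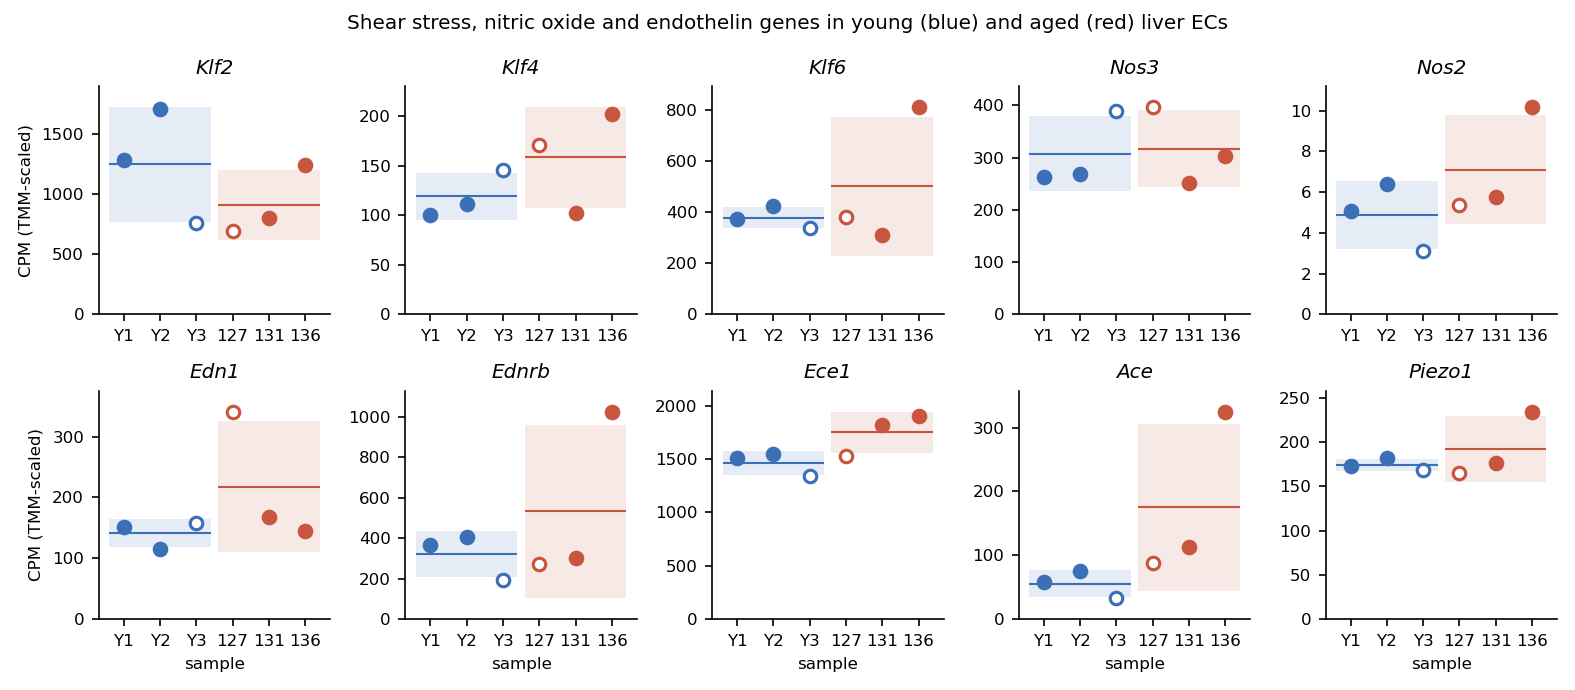
CPM (TMM-scaled, linear axes from 0) of each of the 10 genes in young replicates 1 to 3 (Y1 to Y3, blue) and the 127-, 131- and 136-week samples (red), with 1 point per sample, the group mean as a line and 1 SD as a band. Open points mark the 2 samples with few ribosomal counts. Only Ace has all 3 red points above all blue ones, and the 136-week sample is the highest in 7 of the 10 panels.

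Per transcript length, Klf2 was the most abundant of the genes and Nos2 the least. Klf2 had a mean of 644 ± 237 FPKM over the 6 samples (SD, n = 6), a level above that of 99.4% of the tested genes. Ece1 followed with 335 ± 41.6 FPKM (SD, n = 6). The 2 ranges did not overlap (412 to 1019 FPKM for Klf2 and 283 to 394 FPKM for Ece1), and Ece1 in turn did not overlap with Ednrb. Ednrb (118 ± 81.2 FPKM), Klf6 (106 ± 44.2), Edn1 (81.4 ± 37.3), Nos3 (77.6 ± 16.7), Klf4 (47.1 ± 14.2), Ace (26.1 ± 23.8) and Piezo1 (25.5 ± 3.26) came next in FPKM (SD, n = 6 each). Among these, each overlapped in range with the next, although Nos3 was above Klf4 within every one of the 6 samples. Nos2, at 1.48 ± 0.618 FPKM (SD, n = 6), lay below Piezo1 in all 6 samples and above only 26.8% of the tested genes.

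Piezo1, a channel opened by membrane tension and encoded at chr8:125005598-125075229 (mm9, minus strand, Fam38a in the GENCODE annotation), was nearly level across the young samples. It had 173, 182 and 169 CPM in young replicates 1, 2 and 3 and 165, 176 and 234 CPM at 127, 131 and 136 weeks. Only the 136-week sample lay above the young ones, and the 127-week sample lay below all of them. The group means were 174 ± 6.63 and 192 ± 37.2 CPM (SD, n = 3 each), and the log2 fold change of 0.14 (SE 0.17, 95% interval -0.26 to 0.53) had an adjusted p of 0.800 in edgeR's test. Without the 136-week sample it was -0.03. Both samples with few ribosomal counts lay below the other 4, and the age difference in log2(CPM + 1) was 0.20 among the 4 samples with many such counts and -0.03 between the 2 with few, a change of sign. In mm9 the Piezo1 span meets exons of Ctu2 on the other strand, which had 337 to 651 counts, and whether counting used the strand is not given in the sources used here.

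Klf2, the best-known flow-induced factor of ECs (chr8:74842932-74845555, mm9, plus strand), was the only member with a lower mean in aged ECs. It had 1281, 1710 and 757 CPM in the young samples and 689, 801 and 1243 CPM in the aged ones. The lowest young sample was below 2 of the 3 aged ones, so that the groups overlapped. The means were 1249 ± 478 and 911 ± 293 CPM (SD, n = 3 each), or a log2 fold change of -0.46 (SE 0.35, 95% interval -1.27 to 0.36) with an adjusted p of 0.650 in edgeR's test. Both samples with few ribosomal counts were the lowest of the 6. On the log2(CPM + 1) scale the age difference was -0.57 among the 4 samples with many such counts and -0.14 between the 2 with few.

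Klf4, which shares many targets with Klf2 (chr4:55540013-55545347, mm9, minus strand), leaned the other way. It had 99.9, 111 and 146 CPM in young ECs and 171, 103 and 202 CPM in aged ECs, with the 131-week sample inside the young range. Within the library clusters the difference in log2(CPM + 1) was 0.45 among the 4 samples and 0.23 between the 2. The means were 119 ± 23.9 and 159 ± 50.9 CPM (SD, n = 3 each), or a log2 fold change of 0.41 (SE 0.27, 95% interval -0.22 to 1.05) with an adjusted p of 0.586 in edgeR's test. Klf6, a broadly induced early-response factor (chr13:5860735-5869639, mm9, plus strand), had 373, 423 and 339 CPM in young and 381, 310 and 812 CPM in aged ECs. Its 136-week value was 1.92 times the next highest, while the other 2 aged samples lay within or below the young range. The log2 fold change was 0.40 (SE 0.35, 95% interval -0.43 to 1.23, adjusted p = 0.708 in edgeR's test) and turned to -0.13 without the 136-week sample. Its differences within the clusters were 0.34 and 0.17.

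KLF genes and their surroundings were then counted from lists. Of the 17 KLF genes, 14 were tested, of which 1 had an unadjusted p below 0.05 and was higher (Klf5) and 0 were lower. Their median log2 fold change was 0.36, and 0.32 among the 11 that are not members. Klf5 was a low gene, at 0.79 ± 0.60 CPM in young and 2.71 ± 1.55 CPM in aged ECs (SD, n = 3 each), with a log2 fold change of 1.78 (SE 0.75, unadjusted p = 0.0484, adjusted p = 0.392 in edgeR's test). Klf3, a repressor of the family, was lower in all 3 aged samples (156 to 189 CPM) than in all young ones (195 to 232 CPM), with a log2 fold change of -0.32 (SE 0.15, adjusted p = 0.428 in edgeR's test). Klf8 and Klf12, named here after their values were seen, were higher in all 3 aged samples than in all young ones. Klf8 had 0.19 to 1.19 CPM in young and 1.52 to 2.35 CPM in aged ECs, a log2 fold change of 1.44 (SE 0.68, adjusted p = 0.444 in edgeR's test). Klf12 had 5.87 to 7.26 CPM in young and 7.93 to 9.14 CPM in aged ECs, a log2 fold change of 0.32 (SE 0.21, adjusted p = 0.593 in edgeR's test). Klf10, induced by TGF-beta, had 150 to 284 CPM in young and 232 to 434 CPM in aged ECs, and Klf7, Klf9 and Klf13 overlapped between the ages as well.

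Targets that KLF2 and KLF4 induce in cultured ECs were divided, with 4 of the 8 tested above and 4 below a fold change of 1 and a median log2 fold change of 0.06. With an unadjusted p below 0.05, 2 were higher and 0 lower. Nqo1, a quinone-detoxifying enzyme of the oxidative stress response, had 85.1, 83.2 and 42.7 CPM in young and 120, 205 and 168 CPM in aged ECs. The groups did not overlap, and the log2 fold change was 1.22 (SE 0.31, unadjusted p = 0.0050, adjusted p = 0.243 in edgeR's test). Cyp1b1, a monooxygenase, had 112 to 166 CPM in young and 143 to 314 CPM in aged ECs, a log2 fold change of 0.73 (SE 0.29, unadjusted p = 0.0411, adjusted p = 0.374 in edgeR's test). Thbd, the anticoagulant receptor thrombomodulin and a classical KLF2 target, had 687, 968 and 755 CPM in young and 639, 596 and 1003 CPM in aged ECs, a log2 fold change of -0.11 (SE 0.25, adjusted p = 0.918 in edgeR's test). Tek, named here after its values were seen, had 1534, 1522 and 1554 CPM in young and 1415, 1315 and 801 CPM in aged ECs. All 3 aged values of Tek were lower, with a log2 fold change of -0.38 (SE 0.24, adjusted p = 0.568 in edgeR's test).

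Among 20 genes of flow sensing, all tested, 1 was higher and 2 were lower with an unadjusted p below 0.05, and the median log2 fold change was -0.05. Trpv4, a calcium channel that opens with flow and stretch, had 8.93, 9.39 and 12.3 CPM in young and 24.5, 12.1 and 44.2 CPM in aged ECs. The 131-week sample stayed at the young level, and the log2 fold change was 1.40 (SE 0.44, unadjusted p = 0.0143, adjusted p = 0.301 in edgeR's test). Kdr, the VEGF receptor that acts with Pecam1 and Cdh5 in a junctional shear sensor, had 3330, 3508 and 3680 CPM in young and 2032, 3008 and 1669 CPM in aged ECs. All 3 aged values were lower, with a log2 fold change of -0.65 (SE 0.25, unadjusted p = 0.0366, adjusted p = 0.368 in edgeR's test). P2rx4, an ATP-gated channel for flow-evoked calcium entry, had 92.6 to 145 CPM in young and 56.6 to 83.7 CPM in aged ECs, a log2 fold change of -0.65 (SE 0.23, unadjusted p = 0.0236, adjusted p = 0.332 in edgeR's test). The other partners of Kdr had log2 fold changes of 0.01 (Pecam1, SE 0.17) and -0.21 (Cdh5, SE 0.26).

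Nos3, the endothelial nitric oxide synthase (chr5:23870628-23890292, mm9, plus strand), had the smallest age difference of the 10. It had 264, 268 and 390 CPM in young and 397, 251 and 303 CPM in aged ECs. The high values in each age were those of the 2 samples with few ribosomal counts, which lay above the other 4. The means were 307 ± 71.5 and 317 ± 74.2 CPM (SD, n = 3 each), and the log2 fold change was 0.04 (SE 0.24, 95% interval -0.51 to 0.60, adjusted p = 0.966 in edgeR's test), an interval that still holds a fold change between 0.703 and 1.51. Within the clusters the difference in log2(CPM + 1) was 0.05 among the 4 samples and 0.03 between the 2. In the annotation, Nos3 meets exons of Atg9b on the other strand, which had 67 to 127 counts.

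Nos2, the inducible synthase that macrophages and inflamed cells switch on (chr11:78734289-78773756, mm9, plus strand), stayed low. It had 5.06, 6.41 and 3.09 CPM in young and 5.36, 5.76 and 10.2 CPM in aged ECs, with only the 136-week sample above the young range. The log2 fold change was 0.55 (SE 0.38, 95% interval -0.34 to 1.45, adjusted p = 0.612 in edgeR's test). It rested on 98 to 251 counts per sample, the fewest of the members, and the differences in log2(CPM + 1) were 0.38 among the 4 samples with many ribosomal counts and 0.64 between the 2 with few. Leukocyte markers were also highest at 136 weeks, where 10 of them summed to 555 CPM, against 34.9 to 61.0 CPM in young ECs, 168 CPM at 127 weeks and 38.1 CPM at 131 weeks. Ptprc, which encodes CD45, stood at 25.6 CPM at 136 weeks, 7.56 CPM at 127 weeks and 1.28 CPM at 131 weeks, against 1.17 to 1.70 CPM in young ECs. All 10 leukocyte markers had a fold change above 1 and 7 of them an unadjusted p below 0.05, and the part of leukocyte RNA in the Nos2, Klf6, Ednrb and Ace values was not tested.

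Of 25 genes that make, regulate or receive nitric oxide, 24 were tested, of which 2 were higher and 2 lower with an unadjusted p below 0.05. Their median log2 fold change was 0.04. Nostrin, which binds Nos3 and draws it from the plasma membrane, had 96.6, 113 and 120 CPM in young and 57.4, 72.5 and 52.3 CPM in aged ECs. The groups did not overlap, and the log2 fold change was -0.86 (SE 0.17, 95% interval -1.26 to -0.45, unadjusted p = 0.0014, adjusted p = 0.193 in edgeR's test). The enzymes for the cofactor tetrahydrobiopterin differed in sign. Gch1, the first step of its synthesis, had 55.9, 59.5 and 65.5 CPM in young and 91.8, 64.5 and 107 CPM in aged ECs, a log2 fold change of 0.54 (SE 0.20, unadjusted p = 0.0298, adjusted p = 0.352 in edgeR's test). Pts, the next step, had 35.8 to 41.2 CPM in young and 17.3 to 31.9 CPM in aged ECs, a log2 fold change of -0.70 (SE 0.24, unadjusted p = 0.0213, adjusted p = 0.331 in edgeR's test).

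Slc7a1, a carrier of the substrate arginine, had 6.97 to 10.6 CPM in young ECs and 12.7, 14.1 and 35.6 CPM in aged ECs, a log2 fold change of 1.20 (SE 0.42, unadjusted p = 0.0238, adjusted p = 0.333 in edgeR's test). All 3 aged values were above the young ones, with the 136-week sample the highest. Cav1, the caveolar protein that holds Nos3 inactive, had 378, 438 and 185 CPM in young and 411, 312 and 1041 CPM in aged ECs, with a log2 fold change of 0.82 (SE 0.50, adjusted p = 0.564 in edgeR's test) and its high value at 136 weeks alone. The inhibitor-clearing enzymes Ddah1 and Ddah2 had log2 fold changes of 0.04 (SE 0.26) and -0.03 (SE 0.23). The arginases stayed low, with Arg1 at 1.83 to 7.22 CPM in young and 1.68 to 2.61 CPM in aged ECs and Arg2 below 1 CPM in every sample. Ass1, which regenerates arginine and is named here after its values were seen, had 0 to 2 counts in every sample but authors' FPKM means of 2.23 in young and 3.19 in aged ECs, so the 2 deposited tables differ on it. It was not tested.

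**Figure D2:**
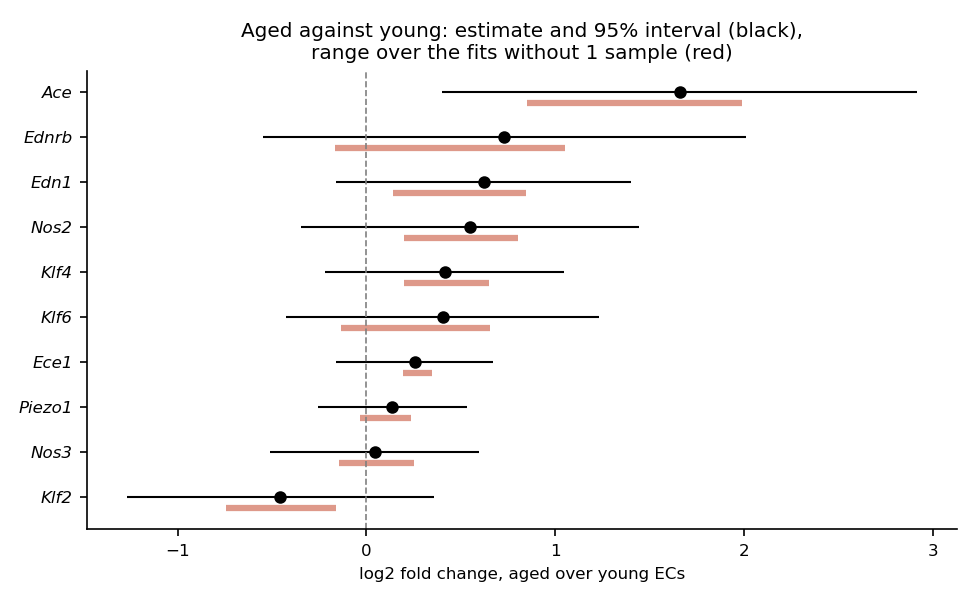
Log2 fold change of aged over young ECs for the 10 genes (x axis), with the edgeR estimate and its 95% interval in black and, in red, the range of the estimate when each of the 6 samples is left out in turn. Only the interval of Ace (0.40 to 2.92) lies to one side of 0, and the red ranges of Ednrb, Klf6, Nos3 and Piezo1 cross 0.

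Edn1, the gene of the constrictor endothelin-1 (chr13:42396639-42403358, mm9, plus strand), whose promoter is shown above, was high in 1 aged sample. It had 152, 115 and 158 CPM in young and 341, 167 and 144 CPM in aged ECs. The 127-week value lay far above the others, the 131-week value just above the young range and the 136-week value inside it. The means were 141 ± 23.0 and 218 ± 108 CPM (SD, n = 3 each), or a log2 fold change of 0.62 (SE 0.33, 95% interval -0.16 to 1.40) with an adjusted p of 0.502 in edgeR's test. Without the 127-week sample it was 0.14. Among the 4 samples with many ribosomal counts the age difference in log2(CPM + 1) was 0.23, and between the 2 with few it was 1.11.

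Ece1, the endothelin-converting enzyme (chr4:137418152-137521144, mm9, plus strand), varied little. It had 1509, 1551 and 1339 CPM in young and 1532, 1819 and 1902 CPM in aged ECs, where only the 127-week sample fell within the young range. The means were 1466 ± 112 and 1751 ± 194 CPM (SD, n = 3 each), and the log2 fold change was 0.26 (SE 0.18, 95% interval -0.16 to 0.67, adjusted p = 0.612 in edgeR's test). It stayed between 0.19 and 0.35 whichever sample was left out, and the differences in log2(CPM + 1) within the clusters were 0.28 and 0.19. Ece2, its homologue, had 7.60 to 11.6 CPM in young and 8.01 to 9.18 CPM in aged ECs.

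Ednrb, the endothelin receptor of ECs (chr14:104213842-104243390, mm9, minus strand), had the widest spread among aged samples, with a coefficient of variation of 80.1% against 35.0% in young ones. It had 366, 404 and 193 CPM in young and 274, 300 and 1025 CPM in aged ECs. Only the 136-week sample exceeded the young range, at 2.54 times the next highest value, and the other 2 aged samples lay inside it. The log2 fold change was 0.73 (SE 0.55, 95% interval -0.55 to 2.01, adjusted p = 0.642 in edgeR's test), and it was -0.16 without the 136-week sample. Both samples with few ribosomal counts lay below the other 4, and the age difference in log2(CPM + 1) was 0.53 among the 4 and 0.50 between the 2. The summed CPM of 8 stellate and mural cell markers was also highest at 136 weeks and lowest in young replicate 3. It was 267, 259 and 126 CPM in young and 390, 195 and 610 CPM in aged ECs. Most came from Reln alone, with 155, 181 and 69.9 CPM in young and 351, 109 and 495 CPM in aged ECs. Des, Rgs5, Acta2 and Myh11, named here after their values were seen, were lowest at 127 weeks, and Pdgfrb and Colec11 in young replicate 3. The part of stellate and mural cell RNA in the Ednrb values was not tested. Lrat, a defining stellate gene, had 4.51 to 23.6 CPM in young and 1.67 to 4.18 CPM in aged ECs.

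Ednra, the constrictor receptor of stellate and muscle cells, was far below Ednrb, with authors' FPKM means of 0.826 in young and 0.925 in aged ECs against 89.5 and 147 for Ednrb. Its 3.87, 3.84 and 1.17 CPM in young and 1.44, 4.16 and 4.30 CPM in aged ECs gave a log2 fold change of 0.16 (SE 0.60, adjusted p = 0.951 in edgeR's test). In the endothelin list of 9 genes, 7 were tested and 0 had an unadjusted p below 0.05 in either direction in edgeR's test. Their median log2 fold change was 0.62, which is the value of Edn1 itself. The 4 tested genes that are not members had a median of 0.61. Among these, Edn3 and Mme, named here after their values were seen, had 0 to 18 and 3 to 35 counts per sample. Edn2 and Kel had no counts in any sample.

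Ace (chr11:105829259-105851278, mm9, plus strand) was the member that stood apart. It had 58.8, 74.9 and 32.5 CPM in young ECs and 87.7, 112 and 325 CPM in aged ECs. All 3 aged values were above all young ones, also in the authors' FPKM (7.69 to 16.6 in young and 20.6 to 73.1 in aged ECs), and the 136-week value was 2.90 times the next highest. The means were 55.4 ± 21.4 and 175 ± 131 CPM (SD, n = 3 each), a 3.16-fold higher level (95% interval 1.32 to 7.57). The log2 fold change was 1.66 (SE 0.54, 95% interval 0.40 to 2.92), with an unadjusted p of 0.0166 and an adjusted p of 0.310 in edgeR's test.

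DESeq2 gave Ace the same fold change on the log2 scale, 1.66, with an adjusted p of 0.0319. The two-sided exact permutation test of its log2(CPM + 1) values gave p = 0.1, the smallest that 3 against 3 allows. Without the 136-week sample the log2 fold change was 0.85 (unadjusted p = 0.0424 in edgeR's test), and without young replicate 3 it was 1.39 (unadjusted p = 0.0542 in edgeR's test). The age difference in log2(CPM + 1) was 1.51 among the 4 samples with many ribosomal counts and 1.41 between the 2 with few. The noncoding gene Gm11651 meets Ace exons on the other strand, with 0 to 2 counts.

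The genes of the angiotensin and kinin pathway, Ace among them, were counted from a list. Of 14 listed, 9 were tested, with a median log2 fold change of -0.11. Ace alone was higher and 0 were lower with an unadjusted p below 0.05 in edgeR's test. The 8 tested genes other than Ace had a median log2 fold change of -0.20. Agt, the angiotensin precursor, had 1.71 to 5.30 CPM in young and 1.62 to 3.57 CPM in aged ECs. The receptor gene Agtr1a had 2.14 to 4.24 CPM in young and 1.38 to 2.88 CPM in aged ECs. Ren1 had no counts in any sample but authors' FPKM means of 0.0466 in young and 0.137 in aged ECs. Enpep, an aminopeptidase that cleaves angiotensin II and is named here after its values were seen, had 377, 355 and 314 CPM in young and 86.2, 310 and 42.1 CPM in aged ECs, a log2 fold change of -1.25 (SE 0.64, adjusted p = 0.481 in edgeR's test). All 3 aged values of Enpep lay below the young ones, with the 131-week sample just under the lowest of them.

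**Figure D3:**
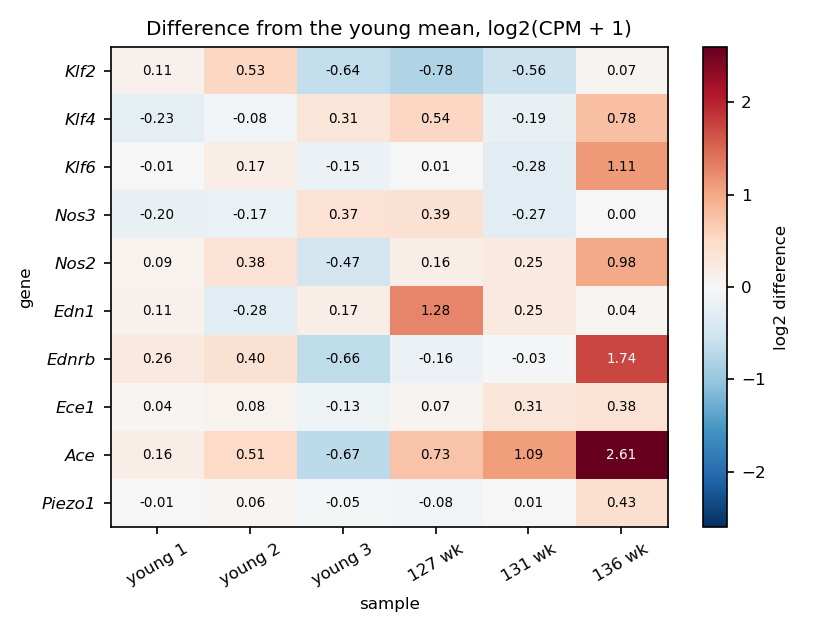
Difference of each sample's log2(CPM + 1) from the young mean for the 10 genes (vertical) in the 6 samples (horizontal), printed in each cell, with red for higher and blue for lower. Ace at 136 weeks (2.61), Ednrb at 136 weeks (1.74) and Edn1 at 127 weeks (1.28) are the highest 3 values, and Klf2 at 127 weeks (-0.78) is the lowest.

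The aged samples did not form one pattern. In 7 members (Klf4, Klf6, Nos2, Ednrb, Ece1, Ace and Piezo1) the 136-week sample had the top value, as it did in 25.7% of all tested genes. The 127-week sample was the highest in Nos3 and Edn1, and young replicate 2 in Klf2. Young replicate 3 was the lowest in 4 members (Nos2, Ednrb, Ece1 and Ace), and the share of all tested genes lowest in that sample was not counted. In 9 of the 10 the aged SD of log2(CPM + 1) exceeded the young one, which was so in 60.7% of all tested genes.

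The genes most like 4 of the members over the 6 samples were taken by the smallest root mean square distance between centred log2(CPM + 1) values, among 8913 genes with a mean of at least 10 CPM. Nos3 had the closest neighbours, Tubgcp3 (0.0337), Sik3 (0.0395) and Parg (0.0473), against a root mean square of 0.266 of its own values about their mean. Those of Klf2 were Prkd2 (0.170), H2afx (0.177) and Gpc4 (0.183), against 0.478 of its own. Edn1 was nearest to Pcyt2 (0.0966), Ccdc88c (0.163) and Chn2 (0.186), against 0.484, and shared with Pcyt2 the high 127-week value (29.8 CPM against 11.0 to 15.8 CPM in the other samples). Ednrb was nearest to Gng2 (0.113), Slc39a14 (0.138) and Olfml2a (0.138), against 0.744, and all 3 had their highest value at 136 weeks, as Ednrb did. These are descriptions over 6 samples, which share their libraries and depths.

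Values of sinusoidal markers and of early-response genes differed between the ages too, without passing the adjusted threshold. Of 10 sinusoidal EC markers, 8 were lower with an unadjusted p below 0.05 in edgeR's test, and the list's median log2 fold change was -1.20. Their summed level was 20438, 21420 and 21427 CPM in young and 7934, 13820 and 7087 CPM in aged ECs. Of 15 immediate early genes that tissue dissociation can raise, 7 were higher with an unadjusted p below 0.05 in edgeR's test and the median log2 fold change was 0.56, with a summed level of 23275 to 26723 CPM in young and 26697 to 36457 CPM in aged ECs, the highest at 136 weeks. Fosb, for one, had 195 to 221 CPM in young and 296 to 535 CPM in aged ECs, while Dusp1, a member of that list named here after its values were seen, was lower in all 3 aged samples (3692 to 4028 CPM) than in the young ones (5181 to 5247 CPM). The part of these shifts in the values of the KLF genes, Ednrb and Ace was not tested.

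**Figure D4:**
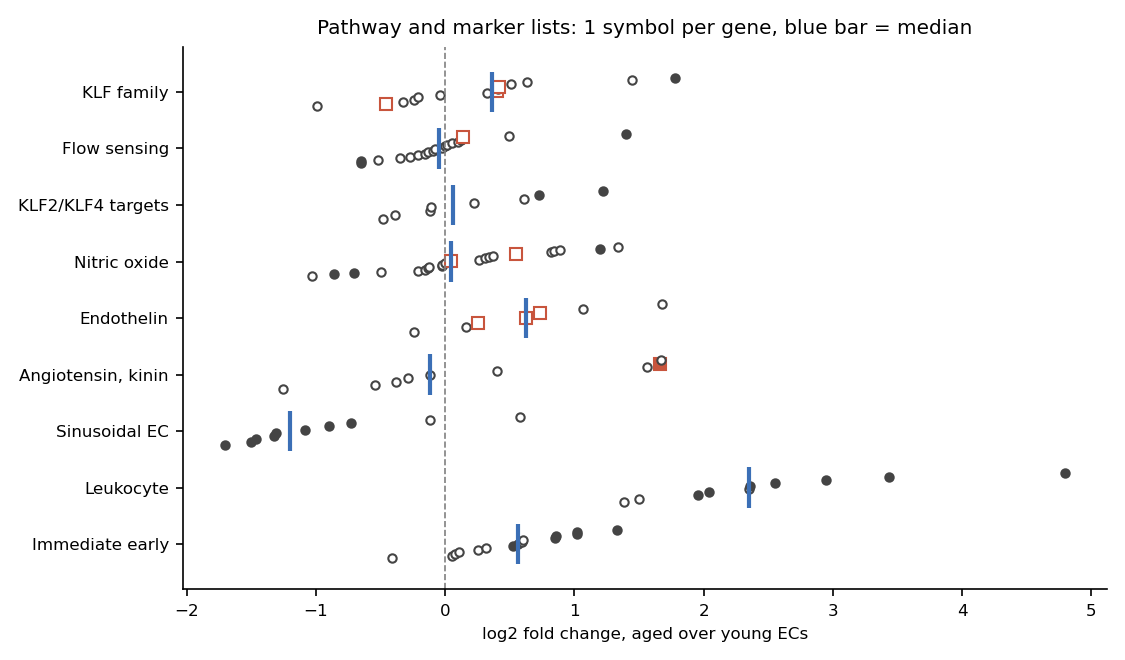
Log2 fold change of aged over young ECs (x axis) for each tested gene of 9 lists, with 1 symbol per gene, red squares for the 10 members, filled symbols for an unadjusted p below 0.05 and a blue bar at the list's median. The sinusoidal markers lie mostly below 0 and the leukocyte markers all above, while the flow sensing, KLF target and nitric oxide lists straddle 0 with medians of -0.05, 0.06 and 0.04.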

How the data were processed

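Liver ECs of 3 young and 3 aged mice were profiled by RNA-seq (TruSeq libraries, 75-base single-end reads). Per the submitters' processing notes and the methods, the authors called bases with CASAVA 1.8.2 and mapped to mm9 with TopHat2 2.1.0. The authors deposited raw read counts per gene symbol, and FPKM values from Cuffnorm 2.2.1, scaled for transcript length and library. The counting program, annotation and use of strand are not given in the sources used here, so overlapping genes are uncertain.

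The counts were tested with edgeR 4.0.16 (R 4.3.3), TMM factors (0.964 to 1.11), a minimum of 0.5 CPM in at least 1 sample, the quasi-likelihood test and Benjamini-Hochberg adjustment over 14612 genes. The SE is the log2 fold change divided by the root of F. FPKM served to compare genes with each other. Depth per sample was 23001556 to 31651817 counts, and as the reads carry no molecular identifiers, counting error is a lower limit of the error. Counts of samples of 1 age differed by a chi-square of at least 21.3 per degree of freedom, so no library was present under 2 names. Alternatives used DESeq2 1.42.0, limma 3.58.1 on counts (voom) or log2(FPKM + 1) or log2(FPKM + 0.1), other filters, a library cluster term and the removal of samples or of Lars2 and Rn45s. The fit was tested on simulated data.

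The members, gene lists, named-gene rule (all members, defining list genes, and list genes with an unadjusted p below 0.05) and alternatives were chosen with earlier results of these data known. The fit on the 4 samples with many Lars2 and Rn45s counts was added after seeing the data. Positions are from GENCODE vM1 (mm9) and promoters from RefSeq (GRCm38.p6). Values of 1 gene of the angiotensin list are not reported here.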

Additional observations from a re-analysis of the deposited data

How the results depend on the processing

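The counts over all genes depended on the test. Against 0 genes higher and 0 lower at an adjusted p of 0.05 in edgeR, DESeq2 called 480 and 150, limma-voom with sample weights 13 and 2, edgeR without a filter on low counts 3 and 1, limma on log2(FPKM + 1) with a minimum of 0.1 FPKM in all samples 1 and 1, a library cluster term 1 and 1, and limma on log2(FPKM + 0.1) 1 higher. Leaving out each sample in turn gave 0 to 1 higher and 0 to 0 lower. At an unadjusted p below 0.05 in edgeR's test, the 1216 higher genes ranged from 735 to 1548 and the 631 lower genes from 346 to 887 when a sample was left out, with the lowest of these counts without the 136-week sample and without young replicate 2, and the cluster term gave 961 lower. The 1 member with an unadjusted p below 0.05 in edgeR's test, Ace, became 3 members with limma-voom (Ace, Klf2 at -0.75 and Edn1 at 0.67). Among all tested genes limma-voom gave 1358 higher and 894 lower at that threshold, against 1216 and 631 in edgeR. The number of members ranged from 0 to 2 when a sample was left out. There were 0 without young replicate 3, beside 1023 of all genes higher and 557 lower. Without the 131-week sample there were 2 (Ace, and Klf4 at 0.65), beside 1548 higher and 887 lower. Without the 136-week sample there were also 2 (Ace, and Edn1 at 0.85), beside 735 higher and 388 lower. The adjusted p of Ace ran from 0.0319, in DESeq2 only below 0.05, to 0.626. Directions turned for Klf6 (-0.13), Ednrb (-0.16) and Piezo1 (-0.031) without the 136-week sample, and for Nos3 without young replicate 1 (-0.054), young replicate 2 (-0.044) or the 127-week sample (-0.15). When each sample was left out in turn, these log2 fold changes reached 0.66 for Klf6, 1.05 for Ednrb, 0.24 for Piezo1 and 0.25 for Nos3. The other 163 combinations of a member and an alternative kept the sign of the log2 fold change and the side of the adjusted threshold, and 1, Ace in DESeq2, passed it. The fit on the 4 samples with many ribosomal counts, chosen after seeing the data, kept every member's sign. The causes were not tested. No paired analysis was possible because the young and aged samples are independent by the methods. The effect of depth on the members was not tested, and Nos2, with the fewest counts, had 98 to 251 per sample.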

Other observations

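Markers of other EC and liver cell types did not all move the same way. Of 9 large-vessel EC markers, 2 were higher with an unadjusted p below 0.05 in edgeR's test and 0 lower, and their median log2 fold change was 0.14. Cd200 had 129 to 144 CPM in young and 214 to 356 CPM in aged ECs, with a log2 fold change of 1.03 (SE 0.21, adjusted p = 0.194 in edgeR's test), and Sox17 had 80.2 to 102 CPM in young and 116 to 142 CPM in aged ECs. Of 8 pan-endothelial markers, 0 were higher and 1, Kdr, was lower with an unadjusted p below 0.05 in edgeR's test. Of 6 hepatocyte markers, all had a fold change below 1 and 1, Cps1, had an unadjusted p below 0.05 in edgeR's test. Their summed level was 83.7 to 134 CPM in young and 57.1 to 82.6 CPM in aged ECs. The 6 Kupffer cell markers summed to 23.8 to 39.3 CPM in young ECs and to 65.9, 6.73 and 90.3 CPM at 127, 131 and 136 weeks, with 0 of them at an unadjusted p below 0.05 in edgeR's test. Of 4 cholangiocyte markers, all had a fold change above 1 and 1, Sox9, had an unadjusted p below 0.05 in edgeR's test. Of 8 stellate and mural cell markers, 1, Lrat, was lower with an unadjusted p below 0.05 in edgeR's test, and the median log2 fold change was 0.28.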
